A study of Mus musculus with 21 samples.

Results

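The Slc25 genes encode the mitochondrial carrier family, the transporters through which most metabolites cross the inner mitochondrial membrane. The members were all rows of the count table whose mouse symbol begins with Slc25a and a number and whose gene is protein-coding, with Slc25a20 left out. The rule found 46 members among 46071 genes. Of 48 symbols with that pattern, Slc25a20 and the pseudogene Slc25a5-ps were left out. The rule used no measured value. It went by symbol, so family members named otherwise, such as the uncoupling proteins Ucp2 and Ucp3, were not taken in.

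Carriers of this family bind their substrate between repeats of a common fold and open to one side of the inner membrane at a time, usually exchanging one molecule for another. In muscle the adenine nucleotide translocases export ATP in exchange for ADP, the phosphate carrier supplies phosphate for ATP synthesis, and the aspartate/glutamate and oxoglutarate carriers move reducing equivalents from the cytosol in the malate-aspartate shuttle. Others bring in nicotinamide adenine dinucleotide (NAD), iron, glutathione, pyrimidine nucleotides or amino acids, and relatives of the uncoupling proteins make up a further branch.

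RNA was sequenced from powdered quadriceps and gastrocnemius muscle of mice in 4 groups, with genotype as one factor and streptozotocin (STZ), which kills the beta cells of the pancreas, as the other. The STZ TKO group (6 libraries) carried floxed Foxo1, Foxo3 and Foxo4 together with a Cre recombinase under the ACTA1 skeletal actin promoter, and received STZ. The TKO group (6 libraries) had the same triple knockout without STZ, the STZ floxed group (5 libraries) carried the floxed alleles without the knockout and received STZ, and the floxed group (4 libraries) had neither. Floxed controls were littermates on a mixed C57 and 129 background. STZ was given once at 150 mg/kg after a fast, females got 75 mg/kg more on day 3, and animals without STZ got citrate buffer. Diabetes meant a blood glucose of more than 300 mg/dL at random sampling. The labels name no age and no sex for the libraries. ACTA1 drives Cre in muscle fibres, so the other cells of the tissue keep the FoxO genes.

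Libraries held 3586183 to 6234979 counts in STZ TKO, 2951290 to 6014870 in TKO, 3377613 to 7676700 in STZ floxed and 4176132 to 7687823 in floxed muscle. Foxo4, a targeted gene, averaged 7.43 ± 2.7 CPM (read count relative to library size) in STZ TKO and 6.24 ± 1.52 in TKO, against 190 ± 7.72 in STZ floxed and 160 ± 29.5 in floxed muscle (SD, n = 6, 6, 5 and 4). Foxo1 averaged 15.8 ± 5.61 CPM in STZ TKO, 14.6 ± 3.97 in TKO, 56.8 ± 21.1 in STZ floxed and 68.9 ± 30.6 in floxed libraries, and both genes fell in both knockout comparisons. Foxo3 passed in neither, at 136 ± 60.7 CPM in STZ TKO against 90.3 ± 14.0 in STZ floxed libraries (edgeR, adjusted p = 0.148) and 96.1 ± 16.6 CPM in TKO against 73.1 ± 11.3 in floxed libraries (adjusted p = 0.616). Counts over a whole gene do not show whether its floxed part was lost, so for Foxo3 the genotype rests on the labels. All 8 myofibre markers were detected in every group, with summed levels of 87570 to 154800 CPM in STZ TKO, 71480 to 178600 in TKO, 42890 to 169000 in STZ floxed and 129300 to 194800 in floxed libraries. All 14 macrophage markers were detected in every group, and their summed level was 270.8 to 2462 CPM in STZ TKO and 272.1 to 1923 in TKO, against 167 to 262.8 in STZ floxed and 151.5 to 192.7 in floxed libraries. Libraries 4 and 15 (STZ TKO) and 16 and 20 (TKO) had the highest macrophage sums, and library 17 (STZ floxed) had the lowest summed carrier level. Library 17 also had the lowest myofibre sum (42890 CPM) and the lowest fibroblast marker sum (605.3 CPM) of all libraries. The 10 denervation genes had a median log2 difference of 1.12 between STZ TKO and STZ floxed muscle, where 6 had an unadjusted p under 0.05, 0 passed in edgeR and 1 in DESeq2, and of 2.27 between TKO and floxed muscle, where these counts were 9, 0 and 6. Among TKO libraries their summed level was 2007 CPM in library 20 and 220.5 CPM in library 10, the next highest. Fold changes of the 9 fibroblast markers were all negative in STZ floxed against floxed muscle (median log2 difference -0.98), where Col1a1 and Col1a2 fell, and all positive in STZ TKO against STZ floxed muscle (median 0.95), where Col3a1 rose. All 8 myofibre markers were negative in the first of these comparisons (median log2 difference -0.63), where Mb alone fell past the threshold. In the second, 5 were positive and 3 negative (median 0.24), and Mb alone rose past the threshold. No endothelial, adipocyte or Schwann cell marker passed in edgeR in any comparison, with at most 3 of a list at an unadjusted p under 0.05 and at most 1 called by DESeq2. In STZ TKO against STZ floxed muscle, 7 of 8 endothelial markers were negative (median log2 difference -0.37). So were 5 of 6 adipocyte (median -1.32) and 5 of 5 Schwann cell markers (median -0.61), and the rest were positive. Summed endothelial levels did not overlap, at 192 to 325.2 CPM in STZ TKO and 342.5 to 419 in STZ floxed libraries. The part of these cells in the carrier values was not tested. In bulk tissue, fewer cells of a type and less RNA per cell cannot be told apart, and this holds for every value below.

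The carriers differed far more from each other than any of them did between groups. Per kilobase of exon, the mean level over 21 libraries was 932 ± 275 CPM per kb (SD) for Slc25a4, the muscle and heart isoform of the adenine nucleotide translocase. The next carriers were Slc25a11, the oxoglutarate/malate exchanger, at 121 ± 34.3 CPM per kb, Slc25a3, the phosphate carrier, at 116 ± 31.3, and Slc25a12, the calcium-responsive aspartate/glutamate carrier aralar, at 67.7 ± 17.8. Slc25a4 alone made up 65.5% of the summed level per kb of all members, and these 4 genes together 86.8%. The levels per kb of Slc25a11 and Slc25a3 differed by less than their spread over libraries, and their order differed between groups. Slc25a11 ranked 2 and Slc25a3 ranked 3 in STZ TKO and TKO muscle, and the reverse held in STZ floxed and floxed muscle. Slc25a4 ranked 1 and Slc25a12 ranked 4 in all 4 groups. Below them came Slc25a25, a calcium-regulated ATP-Mg/phosphate carrier, at 23.5 ± 12.2 CPM per kb, and Slc25a51, the NAD carrier, at 20.3 ± 3.81. These ranks and shares depend on the length used, which was that of all annotated exons of a gene, merged over its transcripts. By CPM alone, Slc25a3 (642 CPM) and Slc25a12 (497 CPM) stood above Slc25a11 (256 CPM). Which transcripts the muscle used was not examined.

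Some paralogs with the same substrate were far apart in level and others were not. Slc25a4 stood 58.9-fold above Slc25a5, the widely expressed translocase isoform, per kb. Slc25a12 stood 220-fold above Slc25a13, the liver-type isoform citrin, which had 2 to 25 counts in each library. Closer together were the pyrimidine nucleotide carriers Slc25a33 and Slc25a36, at 6.84 and 6.13 CPM per kb. The iron carriers Slc25a28 and Slc25a37 had 8.66 and 4.61 CPM per kb. The promoters of the 2 translocase genes, the most abundant carrier and the one that passed the test below, are printed for comparison from RefSeq (GRCm38.p6), each running 5′ to 3′ from 250 bases before to 50 bases after the annotated start. Slc25a4 has its window at chr8:46211013-46211312 on the minus strand and Slc25a5 at chrX:36795347-36795646 on the plus strand. Neither held any of the 4 motifs searched, so no base is in capitals.
Slc25a4: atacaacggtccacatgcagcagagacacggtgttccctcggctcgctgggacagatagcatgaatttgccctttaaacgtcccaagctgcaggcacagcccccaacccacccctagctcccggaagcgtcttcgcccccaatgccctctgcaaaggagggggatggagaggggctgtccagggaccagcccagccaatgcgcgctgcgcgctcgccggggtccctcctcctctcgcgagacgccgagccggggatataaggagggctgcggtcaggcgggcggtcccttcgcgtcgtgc
Slc25a5: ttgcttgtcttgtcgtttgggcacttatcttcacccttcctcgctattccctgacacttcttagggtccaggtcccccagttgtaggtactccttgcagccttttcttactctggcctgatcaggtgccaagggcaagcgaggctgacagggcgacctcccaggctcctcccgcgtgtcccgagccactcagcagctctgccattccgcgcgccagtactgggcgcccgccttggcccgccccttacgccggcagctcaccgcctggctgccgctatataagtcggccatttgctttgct

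Promoter windows matched 35 of the 46 members, with 45 windows of 300 bases, and each was searched on both strands for 4 motifs that do not overlap one another. Slc25a27 and Slc25a44 were among the members without a window, so their promoters were not searched. The forkhead (FoxO) motif GTAAACA occurred in 0 of the 35 members and in 4.05% of all 27025 genes (3.65% of their 32851 windows). The estrogen-related receptor motif TNAAGGTCA, whose factor is known for mitochondrial genes, occurred in 0 members and 1.43% of genes (1.28% of windows), and the palindromic NRF1 motif in 0 members and 1.07% of genes (0.971% of windows). The cyclic AMP response element TGACGTCA occurred in Slc25a25 and Slc25a36, which is 5.71% of the members, against 2.03% of all genes, or in 2 of the members' 45 windows, against 1.79% of all windows. A match is a description of the letters, and a missing match says only that these letters are not in these windows. The Slc25a25 window with the element, at chr2:32424017-32424316 on the minus strand, is shown because it starts at 1 of 3 annotated starts of this gene, whose level varied widely within the groups. The capitals mark the element, which begins at position -150 from the start.
Slc25a25: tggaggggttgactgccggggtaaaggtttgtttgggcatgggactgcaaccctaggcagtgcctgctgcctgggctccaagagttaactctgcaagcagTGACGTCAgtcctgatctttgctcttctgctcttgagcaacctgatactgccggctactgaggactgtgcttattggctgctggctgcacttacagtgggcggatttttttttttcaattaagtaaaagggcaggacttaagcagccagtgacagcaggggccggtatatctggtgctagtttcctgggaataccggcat

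The 10 carriers too low to test were Slc25a2, Slc25a13, Slc25a18, Slc25a21, Slc25a31, Slc25a32, Slc25a41, Slc25a43, Slc25a48 and Slc25a54, and the remaining 36 passed the filter on low counts. Slc25a32, the folate and flavin carrier, was listed at 0 counts in all 21 libraries. Uqcrc1, a respiratory chain subunit that muscle uses, was likewise listed at 0 in every TKO, STZ floxed and floxed library, so a listed 0 is given as such and not read as absence. Slc25a31, the testis isoform of the translocase, had at most 1 count in any library. The 36 tested carriers were 12 of 16 nucleotide and phosphate carriers, 8 of 9 carboxylate and uncoupling-protein-like carriers, 7 of 11 amino acid carriers, 7 of 8 cofactor, metal and glutathione carriers, and 2 of 2 others. The plot of levels per kb shows 35 of them in order.

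**Figure D1:**
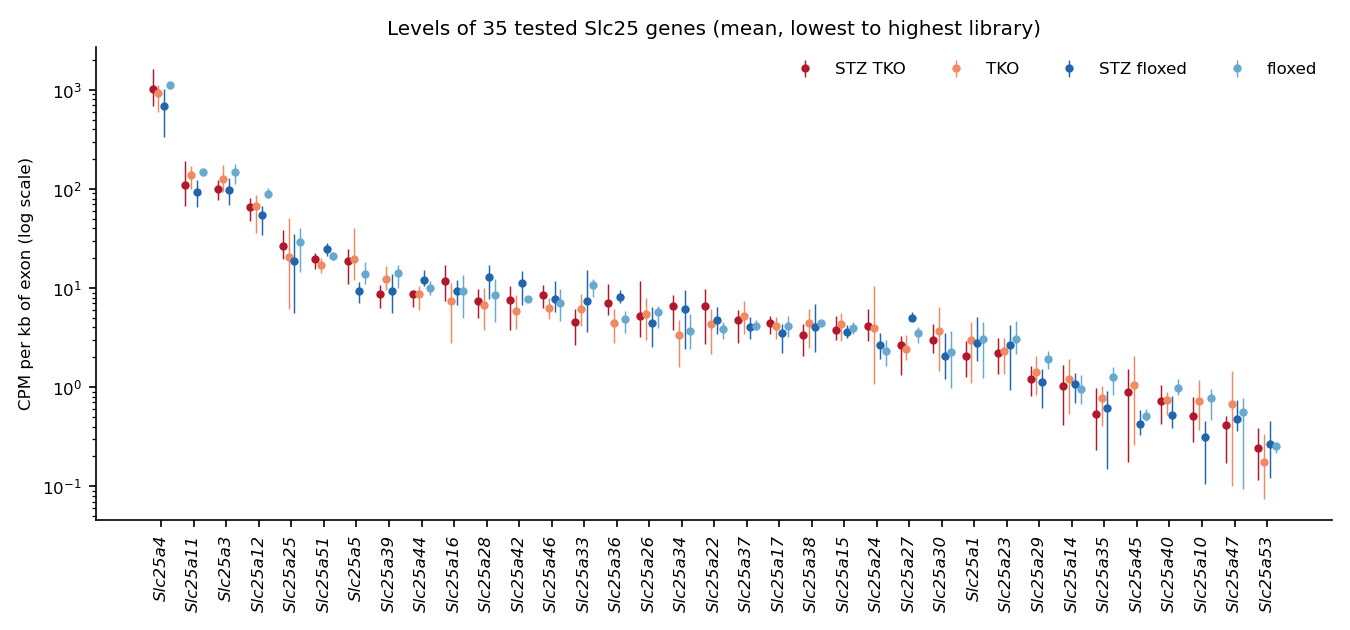
Mean level of 35 of the 36 tested Slc25 genes in CPM per kb of exon on a log axis, by group, with bars from the lowest to the highest library. Slc25a4 lies above every other carrier in all 4 groups, Slc25a11, Slc25a3 and Slc25a12 follow, and the remaining carriers form a long tail.

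Spread between libraries of the same group was moderate for most carriers. The median coefficient of variation over the 36 tested carriers was 29.5% in STZ TKO, 30.7% in TKO, 30.9% in STZ floxed and 20.9% in floxed libraries. The summed level of all members was 4571 CPM in STZ TKO (3514 to 6110 over libraries) and 4490 in TKO (3130 to 5012), against 3639 in STZ floxed (2405 to 4763) and 5302 in floxed libraries (5143 to 5470). Every STZ floxed library lay below every floxed library in this sum, and library 17 was the lowest of all 21.

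The effect of the knockout under diabetes was the comparison of STZ TKO with STZ floxed muscle. Slc25a5 rose and Slc25a27 fell, and the other 34 carriers tested did not pass. The 2 called carriers are 5.56% of the 36, and 4.89% of all 12658 genes tested passed in this comparison (2.47% higher and 2.42% lower), so the members' share was near the background. An unadjusted p under 0.05 was found for 9 carriers, which is 25% of the 36, against 18.7% of all genes. Fold changes were positive for 21 carriers, 53.6% of all genes being positive, and negative for 15, with a median log2 difference of 0.09 beside 0.03 over all genes. This median was 0.0066 without library 8 and 0.0022 with library-code runs as a block, each with 18 carriers on either side of 0.

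Slc25a5 (chromosome X, 36795651 to 36798807, plus strand, GRCm38) encodes the translocase isoform ANT2, found in many tissues and in dividing cells. In STZ TKO libraries it had 18.3 CPM at the lowest, 30.8 at the median and 40.6 at the highest. In STZ floxed libraries 3, 7, 14, 17 and 21 it had 11.5, 17.2, 15.0, 18.7 and 15.1 CPM. Only library 12 of the STZ TKO group lay within the STZ floxed range. In TKO libraries the lowest was 19.9 CPM, the median 25.5 and the highest 66.2, and floxed libraries 1, 5, 9 and 19 had 22.1, 20.3, 29.97 and 17.9 CPM. The log2 difference between STZ TKO and STZ floxed muscle was 0.98 ± 0.27 (SE), with an adjusted p of 0.0357 in edgeR's quasi-likelihood test with Benjamini-Hochberg adjustment. Between TKO and floxed muscle it was 0.54 ± 0.28 (adjusted p = 0.507). The call under STZ was lost when any of libraries 3, 4, 7, 8, 14, 15 or 21 was left out, with adjusted p-values of 0.0587 to 0.0903 and log2 differences of 0.89 to 1.02. Reads from near-identical pseudogene copies of Slc25a5 may be lost or shared, depending on how the authors counted them.

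Slc25a27 (chromosome 17, 43641891 to 43667214, minus strand) encodes uncoupling protein 4, a relative of UCP1 best known from the brain. In STZ TKO libraries it had 5.16 CPM at the lowest, 11.1 at the median and 13.0 at the highest. In STZ floxed libraries 3, 7, 14, 17 and 21 it had 18.5, 22.3, 19.4, 18.7 and 18.8 CPM, so that the 2 groups did not overlap. TKO libraries had 7.42 CPM at the lowest, 8.93 at the median and 13.4 at the highest, and floxed libraries 1, 5, 9 and 19 had 11.0, 15.9, 15.2 and 13.6 CPM. Slc25a27 fell in STZ TKO against STZ floxed muscle, with a log2 difference of -0.89 ± 0.20 (edgeR, adjusted p = 0.00994), and this call held when any 1 library was left out (adjusted p 0.00727 to 0.0304). Between TKO and floxed muscle the log2 difference was -0.54 ± 0.22 (adjusted p = 0.288), and the difference between the STZ effects in both genotypes was -0.35 ± 0.30 on the log2 scale (adjusted p = 1.00).

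Macrophage markers moved with the knockout, and their values stand beside both calls. All 14 were higher on average in STZ TKO than in STZ floxed muscle, 7 of them past the threshold, and all 14 in TKO than in floxed muscle, 2 past the threshold. In STZ TKO libraries 4, 8, 11, 12, 15 and 18, the summed marker level was 1864, 988, 298, 271, 2462 and 693 CPM, and Slc25a5 had 37, 40.6, 25.9, 18.3, 30.3 and 31.2 CPM. With the mean marker level as a covariate the Slc25a5 difference was 0.32 (adjusted p = 0.655) and that of Slc25a27 was -0.77 (adjusted p = 0.159), in a fit that called 215 genes in place of 619. Marker sums were 270.8 to 2462 CPM in STZ TKO and 167 to 262.8 CPM in STZ floxed libraries, without overlap. In this fit the marker level and the genotype therefore cannot be fully told apart. The 9 fibroblast markers also moved with this comparison, with a summed level of 778.9 to 5251 CPM in STZ TKO against 605.3 to 1425 CPM in STZ floxed libraries, 5 at an unadjusted p under 0.05 and none at 0 counts in either group, and their part in the calls was not tested. Without libraries 4, 15, 16 and 20 the Slc25a5 difference was 0.91 (adjusted p = 0.0398) and that of Slc25a27 was -1.03 (adjusted p = 0.0129). With the run of consecutive library codes as a block, the differences were 1.09 (adjusted p = 0.0197) and -0.97 (adjusted p = 0.00852).

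**Figure D2:**
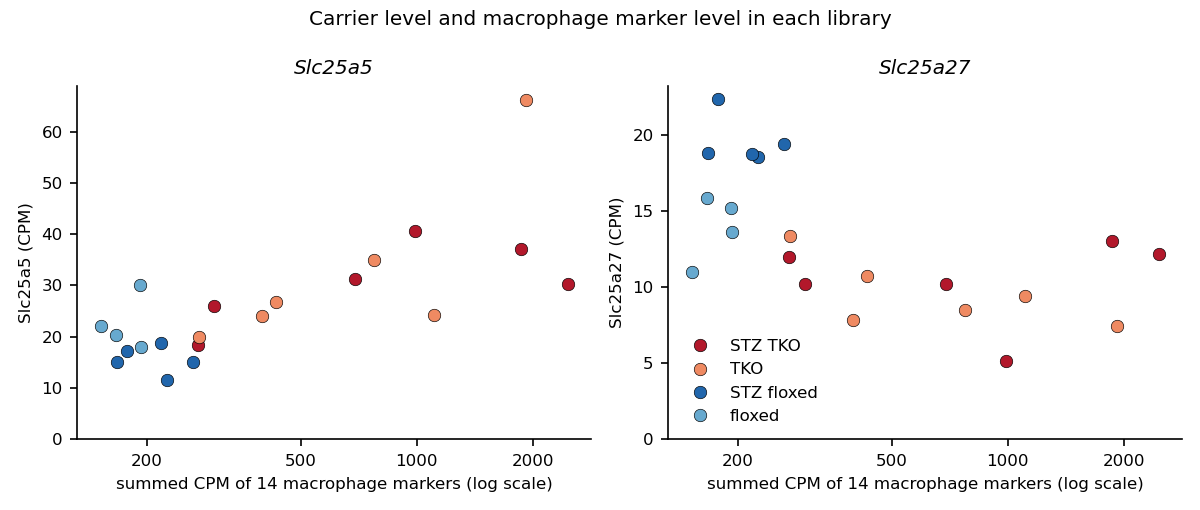
CPM of Slc25a5 (left) and Slc25a27 (right) in each library against the summed CPM of 14 macrophage markers on a log axis, coloured by group. STZ floxed libraries have at most 18.7 CPM of Slc25a5 and at least 18.5 of Slc25a27, and STZ TKO libraries spread from 271 to 2462 CPM of the markers.

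Other carriers differed between STZ TKO and STZ floxed muscle without passing the threshold. Slc25a44, a carrier of branched-chain amino acids, had 23.2 CPM at the lowest, 32.4 at the median and 34.2 at the highest in STZ TKO libraries, against 42, 46, 38, 54.2 and 37.8 CPM in STZ floxed libraries 3, 7, 14, 17 and 21. The groups did not overlap, and the log2 difference was -0.49 ± 0.16 (edgeR, adjusted p = 0.0822). Slc25a27 and Slc25a44 were the 2 carriers wholly below the other group, which is 5.56% of the 36, against 2.24% of all genes, and 0 carriers lay wholly above it, against 1.51% of all genes. DESeq2 called Slc25a44 (adjusted p = 0.0452), and the fit with library-code runs as a block called Slc25a44 (adjusted p = 0.0349), Slc25a28 (0.0380) and Slc25a33 (0.0496), all lower.

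Iron enters mitochondria through the mitoferrins Slc25a37 and Slc25a28, the first known from red cell precursors and the second from most tissues. Slc25a28 had 18.5 CPM at the lowest, 27.6 at the median and 37 at the highest in STZ TKO libraries, against 58.8, 64.7, 29, 36 and 50.9 CPM in STZ floxed libraries 3, 7, 14, 17 and 21. The log2 difference was -0.79 ± 0.28 (adjusted p = 0.110), and that between STZ floxed and floxed muscle was 0.60 ± 0.31 (adjusted p = 0.390). In TKO libraries it had 14.1 CPM at the lowest, 23.3 at the median and 37.8 at the highest, against 37, 46.2, 25.8 and 17.2 CPM in floxed libraries 1, 5, 9 and 19. Slc25a37 had 16.7, 33.7 and 36 CPM at the lowest, median and highest in STZ TKO libraries, against 21.7, 26.5, 18.3, 30.7 and 23.6 CPM in STZ floxed libraries, a log2 difference of 0.26 ± 0.22 (adjusted p = 0.585). In TKO libraries Slc25a37 had 20.6, 31.9 and 44.6 CPM at the lowest, median and highest, against 22.7, 23.4, 28.6 and 24.2 CPM in floxed libraries. The ranges of both mitoferrins overlapped between genotypes, with and without STZ.

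Among the remaining carriers whose mean log2 CPM was 2 or more, the lowest and highest differences under STZ after those named were -0.73 ± 0.31 for Slc25a33 (adjusted p = 0.197), 0.67 ± 0.39 for Slc25a24 (0.381) and 0.58 ± 0.25 for Slc25a4 (0.217). Slc25a45, a low-abundance member, had a log2 difference of 1.03 ± 0.50 (adjusted p = 0.266), on a mean of 2.45 ± 1.43 CPM in STZ TKO and 1.18 ± 0.288 CPM in STZ floxed libraries.

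**Figure D3:**
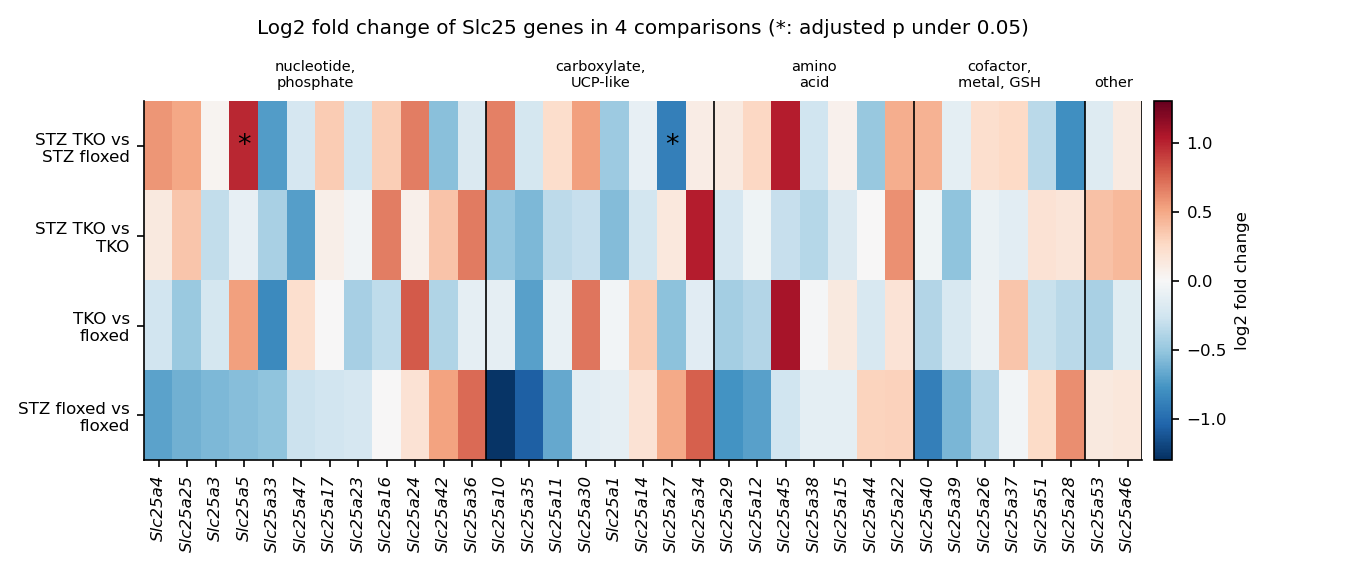
Log2 fold change of 35 of the 36 tested Slc25 genes in 4 comparisons, grouped by substrate class, with an asterisk where the adjusted p was under 0.05. The only asterisks mark Slc25a5 (0.98) and Slc25a27 (-0.89) in STZ TKO against STZ floxed muscle.

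In TKO against floxed muscle no carrier passed the threshold, beside 0.514% of all genes (0.15% higher and 0.363% lower), a share that rests on 65 genes, 32 without floxed library 5 and 105 without TKO library 13. With edgeR, 2 carriers had an unadjusted p under 0.05, which is 5.56% of the 36, against 11.5% of all genes, and DESeq2 also called 0. None of the carriers separated the groups, while 2.35% of all genes lay wholly higher and 2.61% wholly lower. Of the 36, 25 had a negative log2 difference and 11 a positive one, against 49.5% and 50.5% of all genes, with a median of -0.15 beside 0.00 over all genes. When libraries were scaled by their totals alone, the carriers' median was 0.0076 and that of all genes 0.18. The 2 carriers with an unadjusted p under 0.05 were Slc25a33, with a log2 difference of -0.83 ± 0.33 (adjusted p = 0.272), and Slc25a27. Slc25a24, a calcium-regulated ATP-Mg/phosphate carrier, had 0.79 ± 0.42 (adjusted p = 0.507) and Slc25a30, an uncoupling-protein relative, 0.70 ± 0.38 (adjusted p = 0.528). Slc25a25 had -0.49 ± 0.50 (adjusted p = 0.818).

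Slc25a24 and Slc25a25 belong to the same calcium-regulated branch. Slc25a24 had 10.1, 12.3 and 20.9 CPM at the lowest, median and highest in STZ TKO libraries and 3.69, 10.2 and 35.9 CPM in TKO libraries, against 6.57, 8.74, 9.36, 12.2 and 8.48 CPM in STZ floxed libraries and 5.85, 5.57, 10.3 and 9.84 CPM in floxed libraries. The TKO maximum was library 20, which had the highest macrophage sum of that group at 1923 CPM. It also had the group's highest denervation sum (2007 CPM), highest fibroblast sum (8864 CPM) and lowest myofibre sum (71480 CPM). The part of any of these markers in this value was not tested. Slc25a25 had 154, 206 and 303 CPM at the lowest, median and highest in STZ TKO libraries and 47.8, 111 and 401 CPM in TKO libraries, against 117, 275, 224, 43.6 and 81.6 CPM in STZ floxed libraries and 317, 114, 268 and 212 CPM in floxed libraries. The lowest and highest library of each group differed more for Slc25a25 than any 2 group means did.

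The effect of STZ in controls was the comparison of STZ floxed with floxed muscle. The 4 most abundant carriers all averaged less in STZ floxed muscle, and none of the 36 passed the threshold in edgeR, beside 1.35% of all genes (0.498% higher and 0.853% lower). That share rests on 171 genes, a count that was 31 without floxed library 1 and 333 without STZ floxed library 3. An unadjusted p under 0.05 was found for 12 carriers, 33.3% of the 36, of which 9 were lower and 3 higher, against 14.4% of all genes, and DESeq2 called 1, Slc25a36. Slc25a4, Slc25a10, Slc25a11, Slc25a12 and Slc25a40 lay wholly lower, which is 13.9%, against 5.17% of all genes. The 2 that lay wholly higher were Slc25a27 and Slc25a36, which is 5.56%, against 3.62% of all genes. The median log2 difference of the carriers was -0.18 beside 0.02 over all genes, and 23 of 36 were negative, against 48.4% of all genes.

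Slc25a4 (chromosome 8, 46206797 to 46211284, minus strand), which encodes the translocase ANT1, had 2412, 1546, 1453, 787 and 1843 CPM in STZ floxed libraries 3, 7, 14, 17 and 21, against 2428, 2708, 2664 and 2637 CPM in floxed libraries 1, 5, 9 and 19. The groups did not overlap, and library 17, which also had the lowest myofibre sum (42890 CPM), was the lowest. The log2 difference was -0.70 ± 0.28 (edgeR, adjusted p = 0.237). In STZ TKO libraries it had 1616, 2119 and 3866 CPM at the lowest, median and highest, against 1420, 2294 and 2621 CPM in TKO libraries, a log2 difference of 0.12 ± 0.24 (adjusted p = 0.867). Slc25a4 made up 51.4% of the summed carrier CPM in STZ TKO, 48.8% in TKO, 43% in STZ floxed and 49.2% in floxed libraries.

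Slc25a12 and Slc25a11, the abundant carriers of the malate-aspartate shuttle, were also lower in every STZ floxed library than in every floxed library, while the ranges of Slc25a13 overlapped. Slc25a12 had 495, 327, 419, 254 and 493 CPM in STZ floxed libraries 3, 7, 14, 17 and 21, against 597, 601, 653 and 744 CPM in floxed libraries 1, 5, 9 and 19. The groups did not overlap, with a log2 difference of -0.71 ± 0.24 (adjusted p = 0.155). Slc25a11 had 260, 197, 187, 141 and 197 CPM in STZ floxed libraries, against 333, 309, 316 and 288 CPM in floxed libraries, again without overlap and with a log2 difference of -0.67 ± 0.24 (adjusted p = 0.182). In the knockouts, Slc25a12 had 350, 493 and 598 CPM at the lowest, median and highest in STZ TKO libraries against 262, 537 and 639 CPM in TKO libraries. Slc25a11 had 143, 197 and 406 CPM in STZ TKO libraries against 213, 297 and 358 CPM in TKO libraries, by the same 3 measures. These knockout groups overlapped for both genes. In edgeR 0 of 6 shuttle enzyme genes, Mdh1, Mdh2, Got1, Got2, Gpd1 and Gpd2, passed in any comparison. Of these, Gpd1 and Gpd2 belong to the glycerol phosphate shuttle and not to the malate-aspartate shuttle. In STZ floxed against floxed muscle all 6 were negative, with a median log2 difference of -0.69 and 5 at an unadjusted p under 0.05, and DESeq2 called 0. DESeq2 called 1, lower, in STZ TKO against STZ floxed muscle.

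The phosphate carrier Slc25a3 had 723, 647, 384, 424 and 536 CPM in STZ floxed libraries 3, 7, 14, 17 and 21, against 769, 1003, 863 and 629 CPM in floxed libraries 1, 5, 9 and 19, and the groups overlapped. Its log2 difference was -0.59 ± 0.23 (adjusted p = 0.232). In the knockouts, Slc25a3 had 430, 547 and 685 CPM at the lowest, median and highest in STZ TKO libraries against 519, 650 and 973 CPM in TKO libraries. Slc25a51 had 115, 135, 126, 156 and 153 CPM in STZ floxed libraries against 116, 107, 124 and 112 CPM in floxed libraries, a log2 difference of 0.25 ± 0.16 (adjusted p = 0.483). In the knockouts it had 85.3, 109 and 125 CPM at the lowest, median and highest in STZ TKO libraries against 78.5, 92.7 and 111 CPM in TKO libraries. Under STZ its knockout difference was -0.36 ± 0.14 (adjusted p = 0.168).

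**Figure D4:**
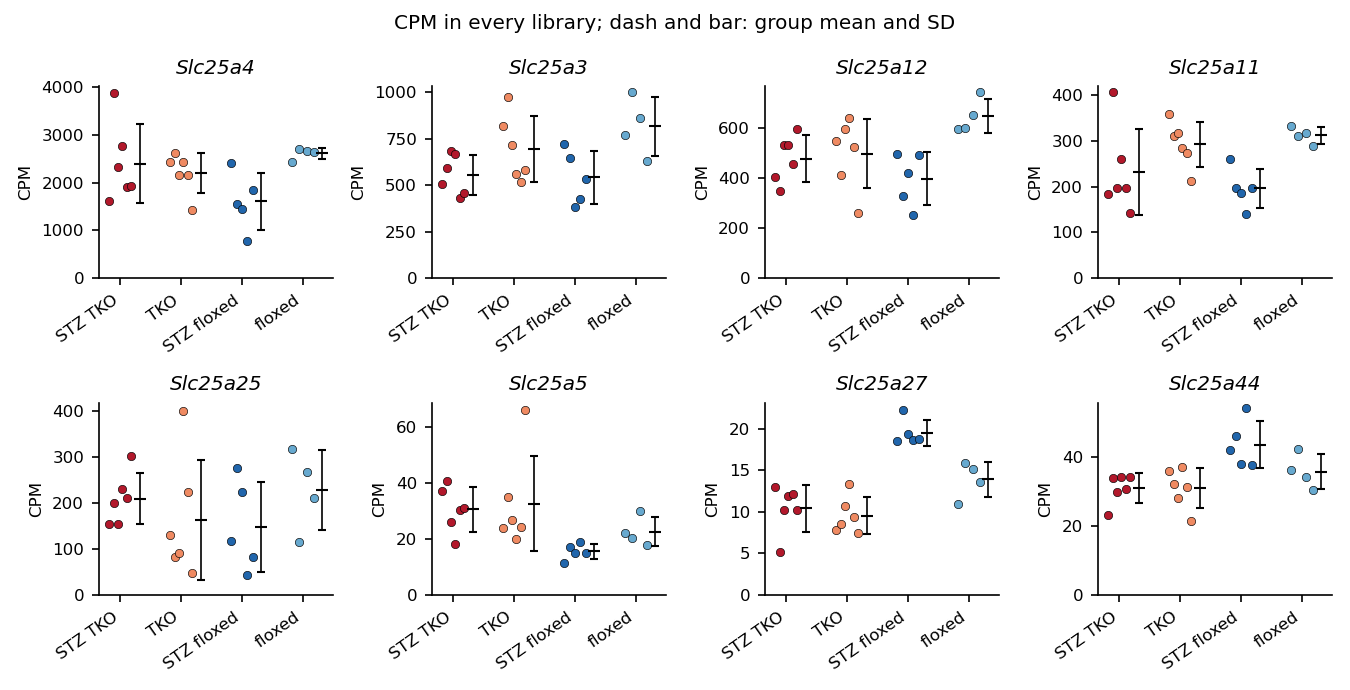
CPM of 8 carriers in every library, with the group mean and SD beside the points and each axis starting at 0. Slc25a4, Slc25a12 and Slc25a11 are lower in every STZ floxed library than in every floxed library, while Slc25a27 is higher in every STZ floxed library than in all other libraries shown.

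Some carriers lay higher in STZ floxed than in floxed muscle. Slc25a36, a pyrimidine nucleotide carrier, had 69.5, 78.7, 67.6, 91.1 and 80.2 CPM in STZ floxed libraries 3, 7, 14, 17 and 21, against 34, 43.2, 51.5 and 56.9 CPM in floxed libraries 1, 5, 9 and 19. The groups did not overlap, and the log2 difference was 0.74 ± 0.23, with an adjusted p of 0.120 in edgeR and 0.0460 in DESeq2. Its relative Slc25a33 had 12.7, 13.9, 8.32, 28.5 and 6.79 CPM in STZ floxed libraries against 20.6, 21.4, 23.3 and 15.4 CPM in floxed libraries, with a log2 difference of -0.53 ± 0.34 (adjusted p = 0.486). In the knockouts Slc25a33 had 5.03, 8.62 and 11.5 CPM at the lowest, median and highest in STZ TKO libraries, against 7.85, 10.3 and 16.6 CPM in TKO libraries. An antisense gene covers 14.9% of the Slc25a33 exons, so part of its count may belong to that gene if strand was ignored.

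The glutathione carriers Slc25a39 and Slc25a40 both averaged less in STZ floxed muscle. Slc25a40 had 4.09, 3.24, 4.29, 3.45 and 6.79 CPM in STZ floxed libraries 3, 7, 14, 17 and 21, against 7.94, 6.96, 7.58 and 10.2 CPM in floxed libraries 1, 5, 9 and 19, without overlap. Its log2 difference, -0.89 ± 0.27 (edgeR, adjusted p = 0.0971), had the lowest adjusted p of the carriers in this comparison. Slc25a39 had 38.2, 23, 26.7, 15.5 and 26.7 CPM in STZ floxed libraries, against 47.1, 45.7, 37.2 and 27.6 CPM in floxed libraries, with a log2 difference of -0.59 ± 0.24 (adjusted p = 0.243). In the knockouts Slc25a39 had 17.5, 23.4 and 29.7 CPM at the lowest, median and highest in STZ TKO libraries, against 26.2, 32.4 and 46.1 CPM in TKO libraries, and Slc25a40 had 3.56, 5.41 and 8.71 CPM against 4.42, 6.36 and 7.42 CPM. The largest negative difference of any tested carrier in this comparison was that of the dicarboxylate carrier Slc25a10, -1.27 ± 0.44 (adjusted p = 0.151), on a mean of 1.1 ± 0.452 CPM in STZ floxed and 2.71 ± 0.767 CPM in floxed libraries.

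The effect of STZ in the knockouts was the comparison of STZ TKO with TKO muscle. No carrier passed, beside 0.142% of all genes (0.0948% higher and 0.0474% lower), and 0 carriers separated the groups, against 0.3% of all genes wholly higher and 0.324% wholly lower. The 0.142% rests on 18 genes, 7 without TKO library 2 or 13 or STZ TKO library 11, and 61 without STZ TKO library 4. In edgeR 6 carriers, 16.7% of the 36, had an unadjusted p under 0.05, 4 higher and 2 lower, against 11.3% of all genes, and DESeq2 also called 0. Slc25a34, a carrier whose substrate is unsettled, had a mean of 17.8 ± 4.66 CPM in STZ TKO and 8.88 ± 3.48 CPM in TKO libraries (SD, n = 6 each), a log2 difference of 1.02 ± 0.31 (adjusted p = 0.242). In controls Slc25a34 averaged 16.5 ± 7.0 CPM in STZ floxed and 9.74 ± 3.54 CPM in floxed libraries, a difference of 0.78 ± 0.36 (adjusted p = 0.321). Slc25a36 had 51.6, 65.0 and 105 CPM at the lowest, median and highest in STZ TKO libraries against 26.9, 38.8 and 58.9 CPM in TKO libraries, a difference of 0.67 ± 0.20 (adjusted p = 0.228). The next highest difference was 0.66 ± 0.27 for Slc25a16, a carrier linked to coenzyme A (adjusted p = 0.376), and low differences were -0.56 ± 0.37 for the citrate carrier Slc25a1 (0.551) and -0.52 ± 0.21 for Slc25a39 (0.369). The median over the carriers was -0.07 beside 0.01 over all genes, and 21 of 36 were negative and 15 positive, against 48.8% and 51.2% of all genes.

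The STZ effect did not differ by genotype past the threshold for any carrier, beside 0.0079% of all genes. In edgeR 2 carriers had an unadjusted p under 0.05, which is 5.56% of the 36, against 3.89% of all genes, and DESeq2 called 0. These were Slc25a40, with an STZ effect 0.83 ± 0.35 higher in knockouts on the log2 scale, and Slc25a4, 0.82 ± 0.37 higher (adjusted p = 1.00 for both). Slc25a4 had 3866 CPM in STZ TKO library 8, with library 12 next at 2764 CPM, and 787 CPM in STZ floxed library 17. The part of these libraries in the Slc25a4 differences was not tested. The highest difference was that of Slc25a25, 0.98 ± 0.68, and the lowest were -0.45 ± 0.42 for Slc25a28, -0.44 ± 0.55 for Slc25a1 and -0.35 ± 0.30 for Slc25a27 among carriers whose mean log2 CPM was 2 or more. The carriers' median difference was 0.14 beside 0.01 over all genes, with 20 positive and 16 negative, against 51.4% and 48.6% of all genes. The median was 0.034 without library 8 and 0.22 without library 3.

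Ratios between paralogs within a library do not depend on how libraries are scaled. Of 7 pairs considered, 5 had both genes above the filter, giving 20 exact permutation tests, two-sided, over the 4 pairwise comparisons. None passed after Benjamini-Hochberg adjustment, where the lowest adjusted p was 0.254. The lowest unadjusted p-values belonged to the pyrimidine pair: the log2 ratio of Slc25a33 to Slc25a36 was -0.66 ± 0.57 in STZ TKO and 0.47 ± 0.79 in TKO libraries (exact p = 0.0152), and -0.29 ± 0.70 in STZ floxed and 1.16 ± 0.49 in floxed libraries (exact p = 0.0318). Slc25a4 was 30.5- to 105-fold above Slc25a5 in STZ TKO and 15.0- to 85.3-fold above it in TKO libraries, against 29.3- to 145-fold in STZ floxed and 62- to 103-fold in floxed libraries, in counts per kb. The lowest ratio was that of library 20 (TKO), and the mean log2 ratio was 5.65 ± 0.89 in TKO and 6.36 ± 0.32 in floxed libraries (exact p = 0.0762). The smallest p these designs allow was 0.00433 for STZ TKO against STZ floxed, 0.00216 for STZ TKO against TKO, 0.00952 for TKO against floxed and 0.0159 for STZ floxed against floxed muscle. With 20 tests, a single ratio could pass after adjustment in STZ TKO against TKO muscle alone.

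Respiratory chain subunits, which use what the carriers bring in, were set beside the carriers. In STZ floxed against floxed muscle, 5 of 81 tested subunits fell (Cox5b, Atp5g3, Atp5mpl, Cyc1 and Ndufs8), 80 were negative, and the median was -0.79, beside -0.18 for the carriers; 42 had an unadjusted p under 0.05, and DESeq2 called 9, all lower. In STZ TKO against STZ floxed muscle 1 subunit rose (Atp5l), 76 of 81 were positive, and the median was 0.51, beside 0.09 for the carriers; 16 had an unadjusted p under 0.05, and DESeq2 called 6, all higher. Both comparisons share the STZ floxed libraries. Among STZ TKO libraries the summed subunit level was 30650 CPM in library 8 and 17690 CPM in library 12, the next highest. STZ floxed libraries had 7565 CPM (library 17) to 17560 CPM (library 3). The part of single libraries in the subunit medians of this paragraph was not tested. In TKO against floxed muscle 0 subunits passed in edgeR, 3 had an unadjusted p under 0.05, and the median was -0.14, beside -0.15 for the carriers. In STZ TKO against TKO muscle these values were 0, 2 and -0.17, beside -0.07 for the carriers. DESeq2 called 0 subunits in both. For the difference of STZ effects 79 of 81 subunits were positive, with a median of 0.58 beside 0.14 for the carriers; 14 had an unadjusted p under 0.05, and edgeR and DESeq2 called 0.

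**Figure D5:**
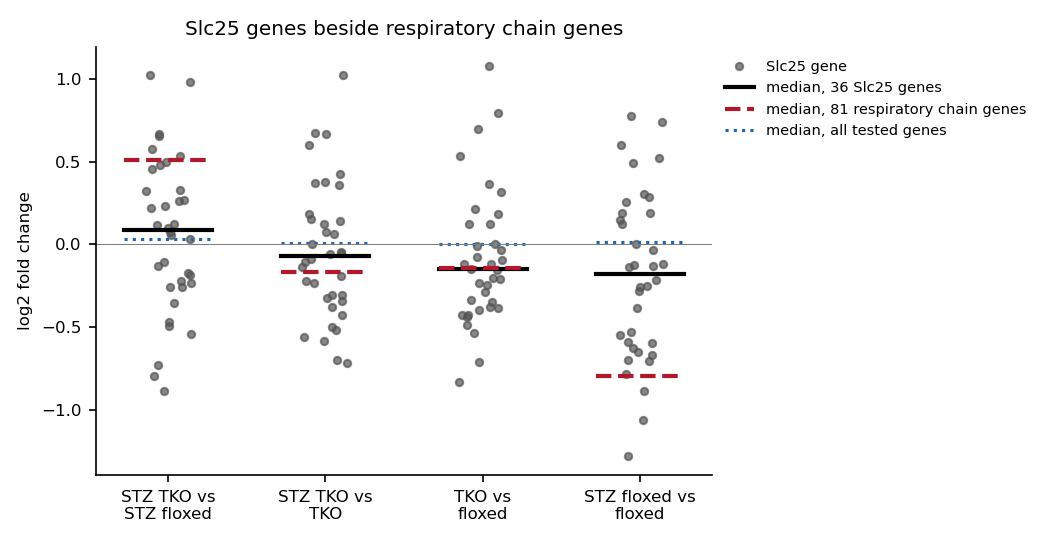
Log2 fold change of each of the 36 tested Slc25 genes in 4 comparisons, with the median of the carriers, of 81 respiratory chain genes and of all tested genes. In STZ floxed against floxed muscle the carriers' median is -0.18 and that of the respiratory chain genes -0.79, and in STZ TKO against STZ floxed muscle 0.09 and 0.51.

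Of 26 transport genes of the mitochondrial membranes that the symbol rule did not take in, such as the calcium uniporter and the pyruvate carrier, 25 were tested. The list includes family members under other symbols, such as Ucp2 and Ucp3, which the rankings above leave out. Ucp3 averaged 268 ± 77.4 CPM in STZ TKO, 228 ± 126 in TKO, 213 ± 116.5 in STZ floxed and 280 ± 145.5 in floxed libraries (SD). In STZ TKO against STZ floxed muscle Mcu, the pore of the calcium uniporter, rose to 53.3 ± 4.41 CPM in STZ TKO against 33.2 ± 4.14 CPM in STZ floxed libraries, a log2 difference of 0.68 ± 0.15 (edgeR, adjusted p = 0.00827). Sfxn3, a sideroflexin, fell to 21.4 ± 8.08 CPM in STZ TKO against 36.9 ± 9.36 CPM in STZ floxed libraries, a difference of -0.78 ± 0.23 (adjusted p = 0.0452). In STZ floxed against floxed muscle 0 of the 25 passed in edgeR, 8 had an unadjusted p under 0.05, and DESeq2 called 1, lower. In each of the other comparisons 0 passed in edgeR and in DESeq2, with 2 or 3 at an unadjusted p under 0.05.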

How the data were processed

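Per the submitters' processing notes, the authors aligned reads with STAR to GRCm38.p4 and counted them with featureCounts; versions, annotation, strand setting and multi-mapping rule were not given in the sources used here. The deposited table holds raw read counts per Ensembl gene. Symbols and exon lengths came from GENCODE mouse release 21 (45229 of 46071 IDs; the rest held 0.0478% of counts).

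Groups followed the genotype and drug labels. Whether every library is a separate animal is not labelled, so p-values measure the spread between libraries. Counts of 12658 genes that passed filterByExpr were fitted with edgeR 4.0.16 (R 4.3.3): TMM scaling, a robust quasi-likelihood model of 4 group means over 21 libraries, 5 two-sided contrasts, Benjamini-Hochberg adjustment over all genes at 0.05. CPM used TMM-adjusted totals (factors 0.862 to 1.35). Levels per kb were divided by the length of all annotated exons of the gene, merged over its transcripts. Within-library ratios used a prior count of 0.5. The fit was tested on simulated data. Alternatives used DESeq2 1.42.0, other scaling and filters, left-out libraries, library-code runs as a block, and a macrophage covariate.

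Values of every library (lowest, median and highest in groups of 6) are given for carriers past the threshold, the 6 most abundant per kb and those in tested ratios; otherwise, per comparison, the 3 highest and lowest differences among carriers whose mean log2 CPM was 2 or more. Slc25a44, Slc25a10, Slc25a45, Slc25a13, Slc25a31 and Slc25a32 were added after their values were seen. Members and lists were chosen with earlier results of these data known. 1 carrier is counted but not reported here.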

Additional observations from a re-analysis of the deposited data

Results flagged for a closer look

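In 60 groups of 15 carriers examined, 5 had a library far from the rest of its group by Dixon's criterion; chance gives about 1 in 20. Slc25a5 had 66.16 CPM in TKO library 20, against 35.01 in the next highest TKO library. Slc25a24 had 35.92 CPM in the same library, against 13.3 in the next. Slc25a27 had 5.156 CPM in STZ TKO library 8, against 10.19 in the next lowest. In STZ floxed library 7 it had 22.34 CPM, against 19.38 in the next highest. Slc25a36 had 105.1 CPM in STZ TKO library 12, against 67.64 in the next highest.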

How the results depend on the processing

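In STZ TKO against STZ floxed muscle the 2 calls became 1 with library totals alone, 1 without libraries 17 and 18 (Slc25a27 in both), 5 with library-code runs as a block, 0 with the macrophage covariate, and 1 to 2 when 1 library was left out. Slc25a5 had an adjusted p of 0.0983 with library totals and 0.0576 without libraries 17 and 18. In STZ TKO against TKO muscle the block gave 1 call in place of 0, and in STZ floxed against floxed muscle DESeq2 gave 1 in place of 0. All other settings kept counts of 0 in these 2 comparisons, and every setting did so in TKO against floxed muscle and for the difference of STZ effects. With library totals, the carriers' median moved to -0.064 in STZ floxed against floxed muscle, 0.0076 in TKO against floxed muscle and 0.0057 for the difference of STZ effects, where the medians of all genes were 0.14, 0.18 and -0.16. The macrophage covariate gave 0.00027 in TKO against floxed muscle, and the block gave 0.024 for the difference of STZ effects. The cause of these shifts was not tested. Calls over all genes moved by over 1.5 times under DESeq2, to 421 in STZ floxed against floxed, 346 in TKO against floxed, 985 in STZ TKO against STZ floxed, 112 in STZ TKO against TKO muscle and 4 for the difference of STZ effects, against 171, 65, 619, 18 and 1. The block gave 1068 in STZ TKO against STZ floxed and 98 in STZ TKO against TKO muscle. The macrophage covariate gave 287 in STZ floxed against floxed, 18 in TKO against floxed, 215 in STZ TKO against STZ floxed and 32 in STZ TKO against TKO muscle. Fits of 2 groups gave 265, 312 and 4 in STZ floxed against floxed, STZ TKO against STZ floxed and STZ TKO against TKO muscle. TKO against floxed muscle had 42 calls with library totals, 125 without libraries 17 and 18 and 40 without libraries 4, 15, 16 and 20. STZ TKO against TKO muscle had 29 with no filter and 28 without libraries 17 and 18. The difference of STZ effects had 0 to 4. With 1 library left out, calls over all genes ranged from 31 to 333 in STZ floxed against floxed, 32 to 105 in TKO against floxed, 380 to 780 in STZ TKO against STZ floxed and 7 to 61 in STZ TKO against TKO muscle. The carriers' median then ranged from -0.28 to -0.15, -0.24 to -0.11, 0.0066 to 0.11 and -0.12 to -0.023 in the same order. No ratio between paralogs passed with a prior count of 2, without libraries 17 and 18, without libraries 4, 15, 16 and 20, or with 1 library left out, in a design where few of the tests could pass. No paired analysis was possible because no replicate number is shared between groups. The runs of library codes, which the labels do not call pairs, were fitted as the block above. Groups were spread unevenly over these runs. Those of libraries 13 to 15 and 16 to 18 held no floxed library. That of libraries 9 to 12 held no STZ floxed library, and that of libraries 19 to 21 no STZ TKO library. Carriers with few counts limit what could be detected.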

Other observations

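Slc25a45 had 0.486 to 4.22 CPM in STZ TKO and 0.722 to 5.67 CPM in TKO libraries, against 0.909 to 1.61 CPM in STZ floxed and 1.25 to 1.67 CPM in floxed libraries. Slc25a13 (citrin) had 0.681 to 2.76 CPM in STZ TKO and 0.6 to 3.63 CPM in TKO libraries, against 0.52 to 1.31 CPM in STZ floxed and 0.557 to 1.25 CPM in floxed libraries, and was below the filter. For both, the knockout groups, which also held more libraries, spanned a wider range than the floxed groups. The highest knockout values of Slc25a13 were those of libraries 20, 15 and 4, and library 6 was next at 1.47 CPM. Those of Slc25a45 were in libraries 20, 16 and 4. Libraries 4, 15, 16 and 20 were those with the highest macrophage sums, and the part of the markers in these values was not tested.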
